A study of Mus musculus with 47 samples.

Results

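The proteasome is the large protease that degrades proteins tagged with ubiquitin, and its genes were followed here in brainstem and hippocampus of mice that carry a human transgene and mice that do not, on 2 diets. The genes were taken by name: every protein-coding mouse gene whose symbol starts with Psma, Psmb, Psmc, Psmd, Psme, Psmf or Psmg and a digit. This gave 51 of the 33139 genes in the brainstem counts and the same 51 of 31751 in the hippocampus counts. Of these, 49 encode parts, activators, inhibitors or assembly factors of the proteasome, and 2 are only named alike. Psmc3ip encodes a recombination factor that binds a proteasome subunit, and Psme3ip1 a protein that binds an activator subunit. Psmc3ip had too few reads in both regions to be tested, and Psme3ip1 is 1 of the tested genes in the counts below.

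All mice were male, of C57BL/6 background, and about a year old. TG mice were homozygous for a mutant human transgene, which a Thy1 promoter drives in neurons of the central nervous system. WT controls came from the same outcross but were bred as a colony beside it, so genotype and colony cannot be told apart. Mice of both genotypes received a standard diet (SD) or a high-fat diet (HFD) from weaning on, which gave the groups WT-SD, WT-HFD, TG-SD and TG-HFD. Each library came from the dissected tissue of 1 mouse, with 5 libraries in WT-SD of brainstem and 6 in each of the other 7 groups. The brainstem sample was the medulla, and the hippocampus was taken whole.

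The core particle of the proteasome is a barrel of stacked rings, with outer rings of alpha subunits that gate the entrance and inner rings of beta subunits that cut the substrate. A regulatory cap with a ring of ATPases unfolds substrates, and its non-ATPase subunits recognise and remove ubiquitin. On interferon, 3 catalytic beta subunits are replaced by inducible ones, which forms the immunoproteasome known from antigen-presenting cells. When proteasome activity falls, the factor encoded by Nfe2l1 raises the transcription of subunit genes through antioxidant response elements in their promoters. In neurons the proteasome is a main route by which short-lived and misfolded proteins are cleared.

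Promoter sequences are shown because subunit genes are known for shared control elements, and the genes chosen are those the values below turn on. RefSeq promoters on GRCm38.p6, from 250 bases before to 50 bases after the gene start, were at hand for 43 of the 51 genes and for 27025 genes in all. Each stretch below has 100 bases, all before the start, written 5′ to 3′ on the strand of the gene, with a motif in capitals. The motif is TGACNNNGC, an antioxidant response type, in Psmb5 (chr14:54617996-54618095, minus strand) and in Psmb6 (chr11:70525257-70525356, plus strand). It is TTCNNNGAA, a STAT type, in Psmb8 (chr17:34198053-34198152, plus strand), and the nuclear respiratory factor motif, read on the other strand, in Psmc4 (chr7:28050207-28050306, minus strand).
Psmb5: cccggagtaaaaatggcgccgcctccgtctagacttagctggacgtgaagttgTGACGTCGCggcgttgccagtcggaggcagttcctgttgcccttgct
Psmb6: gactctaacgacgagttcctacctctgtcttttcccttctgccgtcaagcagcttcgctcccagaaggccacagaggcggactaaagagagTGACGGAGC
Psmb8: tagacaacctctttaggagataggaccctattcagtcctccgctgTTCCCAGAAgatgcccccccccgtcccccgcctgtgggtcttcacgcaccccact
Psmc4: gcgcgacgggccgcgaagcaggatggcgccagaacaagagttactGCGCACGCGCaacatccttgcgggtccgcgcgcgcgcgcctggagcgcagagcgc

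The first base of the motif lay 47 bases before the start in Psmb5, 9 in Psmb6, 97 in Psmb8 and 169 in Psmc4. Searched on both strands, TGACNNNGC was in 6 of the 43 promoters (13.95%) and in 13.99% of all promoters of the same length. The share for TTCNNNGAA was 6.98% of the 43 and 9.55% of all. The nuclear respiratory factor motif was in 7 of the 43 (16.3%) and in 5.19% of all, and the 7 were Psma2, Psma3, Psma4, Psmc4, Psmc5, Psmd14 and Psmg1. CCGGAAG, an ETS type, was in 16 of the 43 (37.2%) and in 9.93% of all. CCAAT was in 37.2% of the 43 and 41.1% of all, and the interferon-stimulated response element in 5 of the 43 (11.6%) and 3.99% of all. No motif overlap was removed, and a match describes letters in this window, not a bound site.

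Total counts ran from 10020784 to 15078812 per library in brainstem and from 11945971 to 17328447 in hippocampus. Thy1, whose promoter the transgene carries, was at 6534 to 9310 CPM (counts scaled to a common library total) in TG and 484 to 603 CPM in WT libraries. Among markers of the medulla, the glycine transporter gene Slc6a5 averaged 383.6 CPM in brainstem and 0.0674 CPM in hippocampus, where Hoxb5, Hoxa5 and Hoxb8 were absent or at 0. The tissue is a mixture of cell types, so fewer cells of a type and less RNA per cell cannot be told apart. Libraries differed in how their values leaned on the GC content of genes. This slope, in log2 per 10% of GC content, had a median of 0.119 in WT-HFD and -0.0554 in TG-HFD of hippocampus, and of 0.132 and -0.0205 in brainstem. Its lowest values were -0.325 and -0.2905, in TG-HFD replicate 3 and TG-SD replicate 1 of brainstem.

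The proteasome genes had more reads than the typical gene. Their median mean count was 988 in brainstem and 920 in hippocampus, where the medians of all tested genes were 320.2 and 370.2. Levels between genes are given as CPM per kilobase of exon, after scaling of the libraries with TMM. Cap ATPases had the highest median in both regions, 45.0 in brainstem and 39.6 in hippocampus, followed by constitutive beta subunits with 42.8 and 35.0. Alpha subunits had medians of 31.0 and 24.0 and non-ATPase cap subunits of 24.3 and 23.7. Activators and inhibitors lay lower at 7.87 and 7.27, and assembly chaperones at 6.88 and 7.25.

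The highest level in both regions was that of Psmc5, an ATPase of the cap that unfolds substrates. It was at 184.8 CPM per kilobase in brainstem (158 to 204 over 23 libraries), where every library exceeded every library of the next gene, Psmc1. Psmc1, the ATPase whose tail opens the gate of the core, was at 89.6, and Psma6, an alpha subunit, at 83.4. In hippocampus the order began with Psmc5 at 82.9. From highest to lowest, 47 of the 50 pairs of neighbours in brainstem and 48 of 50 in hippocampus had overlapping ranges, so most of the order was not resolved. At the lower end stood Psmg3, an assembly chaperone, with 1.94 and 1.51, and below it genes with few reads.

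**Figure D1:**
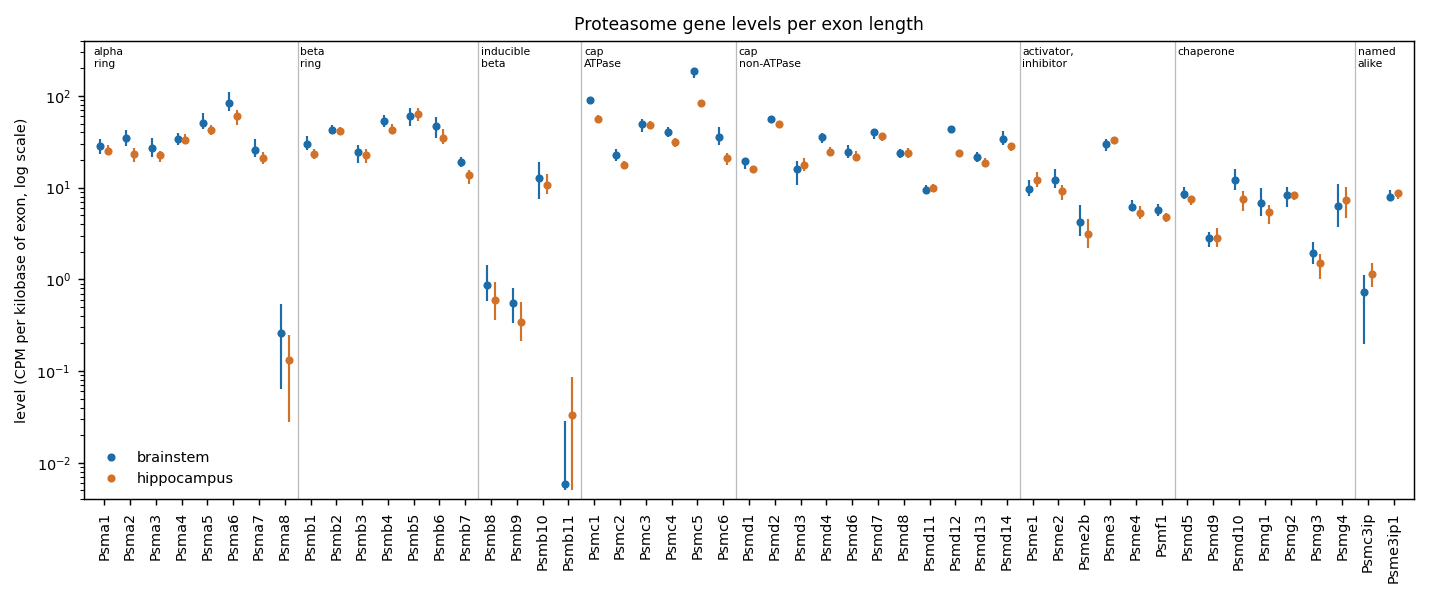
Level of the 51 genes in CPM per kilobase of exon on a log axis, as the mean (point) and the range (line) over 23 brainstem and 24 hippocampus libraries, ordered by role. Psmc5 stands highest in both regions, and the inducible subunits Psmb8, Psmb9 and Psmb11 and the testis alpha subunit Psma8 lie below all constitutive core subunits. Ranges of Psmb11, which reach 0, end at the lower edge.

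The constitutive catalytic subunits Psmb5, Psmb6 and Psmb7, which carry the chymotrypsin-like, caspase-like and trypsin-like sites, were unequal in level. In brainstem Psmb5 was at 59.7 CPM per kilobase, Psmb6 at 46.6 and Psmb7 at 18.9. The values in hippocampus were 63.8, 35.0 and 13.8. This order depends on the exon length used, 899 bases for Psmb5, 1872 for Psmb6 and 3421 for Psmb7. In CPM their means were 53.7, 87.3 and 64.6 in brainstem and 57.3, 65.5 and 47.3 in hippocampus. Psmb10, the inducible partner of Psmb7, was at 12.9 CPM per kilobase in brainstem and 10.8 in hippocampus, below Psmb7. Its mean CPM, 22.0 and 18.4, also lay below that of Psmb7. Per kilobase, the other inducible catalytic subunits, Psmb8 and Psmb9, were at 0.876 and 0.554 in brainstem and at 0.593 and 0.344 in hippocampus. Psmb11, the beta subunit of thymic epithelium, was at 0.0058 and 0.0328. Psma8, the alpha subunit of male germ cells, was at 0.26 and 0.131.

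Summed per length, the inducible subunits Psmb8, Psmb9 and Psmb10 made up 7.05 to 12.2% of the RNA of the 6 catalytic subunits in brainstem and 8.15 to 11.4% in hippocampus. The size of this share also depends on the exon lengths used, 3381 bases for Psmb8, 3660 for Psmb9 and 1705 for Psmb10. In brainstem the mean share was 10.2% ± 0.737 (SD, n = 5) in WT-SD, 11.2% ± 0.603 (n = 6) in WT-HFD, 9.35% ± 1.18 (n = 6) in TG-SD and 10.1% ± 1.39 (n = 6) in TG-HFD. The hippocampus gave 9.38% ± 0.560, 10.4% ± 0.899, 8.95% ± 0.642 and 9.04% ± 0.599 in the same order (n = 6 each). In brainstem the WT-HFD libraries, from 10.3722%, lay just above the TG-SD libraries, up to 10.3637%, and all other ranges overlapped, as did all ranges in hippocampus. The WT-HFD mean was the highest in both regions. Most of this share was Psmb10, whose RNA has a GC content of 56.5%, and the GC slope of the libraries was also highest in WT-HFD. The part of that slope in the share was not tested.

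For the constitutive catalytic subunits in brainstem, Psmb5 ran from 49.9 over a median of 53.2 to 56.8 CPM in WT-SD. It ran from 47.5 over 56.3 to 65.9 in WT-HFD, from 49.2 over 56.9 to 59.8 in TG-SD, and from 42.4 over 48.8 to 59.8 in TG-HFD. The 4 groups overlapped, with the lowest library in TG-HFD. Psmb6 had medians of 83.8, 93.1, 89.1 and 84.6 CPM in WT-SD, WT-HFD, TG-SD and TG-HFD, within 65.7 to 110.7 CPM. Psmb7 had medians of 60.7, 65.0, 66.5 and 62.8 CPM, within 56.9 to 74.5 CPM. Psmb10 had medians of 22.2, 25.5, 21.9 and 20.1 CPM, and its 2 lowest libraries, at 12.9 and 13.0 CPM, were the ones with the lowest GC slopes.

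In hippocampus Psmb5 had medians of 57.0, 58.4, 53.9 and 57.2 CPM in the same order of groups, within 47.5 to 66.9 CPM. The medians of Psmb6 were 66.9, 63.8, 62.7 and 64.8 CPM and those of Psmb7 49.8, 46.4, 46.2 and 47.8 CPM. Psmb10 had medians of 18.9, 20.02, 17.6 and 17.1 CPM, within 14.5 to 24.0 CPM. Groups overlapped for each of these genes.

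**Figure D2:**
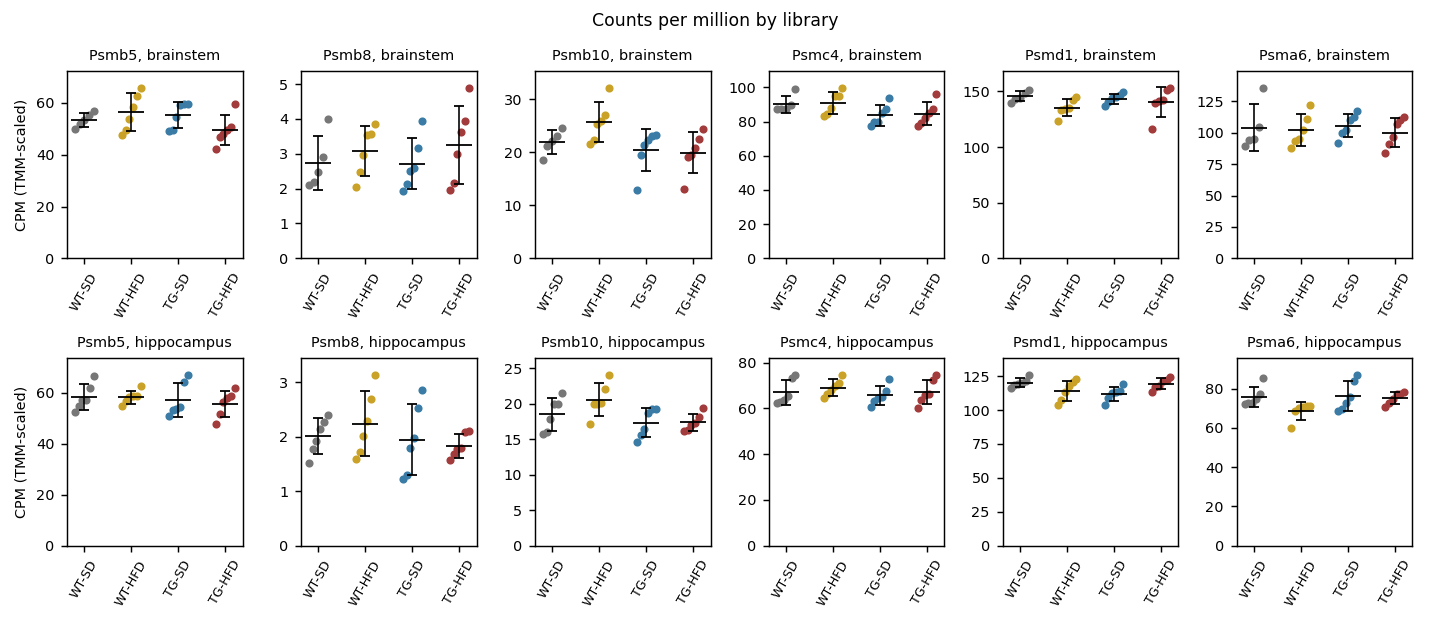
CPM of each library for 6 genes in both regions, with 1 point per mouse and, for each group, a bar at the mean with the SD. The 4 groups overlap for the catalytic subunits, and Psmc4 in brainstem lies between 77.2 and 93.6 CPM in TG-SD and between 87.1 and 99.1 CPM in WT-SD.

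Libraries of the same group differed little in these genes. The median coefficient of variation within groups was 8.01% over the 44 genes tested in brainstem, against 10.8% over all tested genes, and 6.69% over 45 genes against 9.07% in hippocampus. The steadiest genes were Psmd2, the large scaffold of the cap, with 4.04% in brainstem and Psme3, a nuclear activator, with 2.83% in hippocampus. The most variable were Psmb10 with 16.0% in brainstem and the chaperone Psmg4 with 18.9% in hippocampus. By role, non-ATPase cap subunits varied least, with medians of 5.74% and 5.21%, and chaperones most, with 10.9% and 12.3%, among roles of more than 1 tested gene. Alpha subunits had medians of 9.53% and 6.69%.

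The largest differences between the regions exceeded every fitted change between groups. Counts of both regions were scaled together for this description, over 12619 genes tested in both. The median log2 difference, hippocampus minus brainstem, was -0.21 over the 44 genes and -0.02 over all genes. Of the 44 genes, 33 were lower in hippocampus, against 6502 of the 12619. For 8 of the 44 (18.2%) every hippocampus library lay below every brainstem library, which held for 16.2% of all genes. For 0 of the 44 did every hippocampus library lie above, against 17% of all genes. Psmc5 differed most, with 218 to 282 CPM in brainstem and 109 to 128 CPM in hippocampus, 2.16-fold higher in brainstem. Among these 8, next came Psmd12 (1.79-fold), a non-ATPase cap subunit, then Psmc6 (1.63-fold) and Psmc1 (1.54-fold), both ATPases, and the others were Psma2, Psmd4, Psmb7 and Psmc4. On the other side, Psme1, a subunit of the interferon-induced activator, was higher in hippocampus by 0.38 on the log2 scale, with overlapping libraries. These genes were chosen after their values were seen.

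For the comparisons between groups, a gene was tested in a region where its counts averaged 50 or more, which left 44 of the 51 in brainstem and 45 in hippocampus. The quasi-likelihood test of edgeR was run on all 4 groups of a region together, with 4 surrogate variables added. These are estimated from the counts and are meant to stand for variation between libraries beyond the groups. They were not forced to be unrelated to the groups, so they can also take up part of a group difference. Calls needed both a p of 0.05 or less after Benjamini-Hochberg adjustment and a log2 fold change of 0.3 or more in either direction. Fitted changes are at equal values of the surrogate variables, so they can differ from the difference of the group means. Without the surrogate variables the sign differed for 9 to 21 of the 44 genes in the 5 brainstem comparisons and for 4 to 23 of the 45 in the hippocampus ones.

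The question of the genotype comparisons is whether tissue with the transgene has other RNA levels of this protease. On SD, 0 of the 44 genes were called in brainstem, where 0.142% of all tested genes were. At an unadjusted p up to 0.05 there was 1 of the 44 (2.27%), against 10.5% of all genes. In TG-SD 21 genes were higher and 23 lower, with a median log2 fold change of -0.0015, against 0.0013 over all genes. Without surrogate variables the split was 26 and 18. The median absolute change was 0.0356, against 0.0569 over all genes. The 95% interval lay wholly within ±0.3 for 42 of the 44 genes, against 75.7% of all genes.

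The 1 gene was Psmc4, an ATPase of the cap ring. Its WT-SD libraries were at 87.5, 89.6, 99.1, 87.1 and 87.2 CPM, and its TG-SD libraries at 84.9, 93.6, 79.6, 79.7, 87.4 and 77.2 CPM. TG-SD was mostly lower, but 2 of its 6 libraries reached into the WT-SD range. The fitted log2 fold change was -0.15 (SE 0.0313, 95% interval -0.22 to -0.0871), with an adjusted p of 0.0218, under the fold threshold. By adjusted p alone it was 1 of the 44 genes, against 0.247% of all genes. The call by adjusted p was lost without surrogate variables, where the change was -0.11 and the adjusted p 0.788. It was also lost with 1 or 2 surrogate variables, with other filters on low counts, with only the 2 groups compared, and without any one of WT-SD replicates 6, 7 and 8 and TG-SD replicates 5 and 8, with adjusted p from 0.0608 to 0.128. On HFD the same gene stood at 83.5 to 99.9 CPM in WT and 77.4 to 96.4 CPM in TG, with a log2 fold change of 0.0319 (adjusted p 0.971). Without surrogate variables that change was -0.10, with group means of 90.9 CPM in WT-HFD and 84.6 CPM in TG-HFD. In hippocampus the TG-SD change of Psmc4 was 0.0312 (adjusted p 0.86).

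The other roles on SD in brainstem were centred near 0. Alpha subunits had a median of -0.036 (3 higher, 4 lower), constitutive beta subunits 0.0009 (4 higher, 3 lower), and non-ATPase cap subunits -0.0012 (5 higher, 6 lower). Even with Psmc4, the 6 ATPases had a median of 0.0227. Psmb5 was at 0.041 (SE 0.0457), Psmb6 at 0.0344 (SE 0.0321), Psmb7 at 0.0009 (SE 0.0443) and Psmb10 at -0.0018 (SE 0.0705), with adjusted p of 0.761 or higher. Their intervals lay within -0.15 and 0.14.

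On HFD, 0 of the 44 genes of brainstem were called between TG and WT, against 0.0525% of all genes, and 0 had an unadjusted p up to 0.05, against 5.59%. There were 24 higher and 20 lower, with a median of 0.0087 (0.0055 over all genes). Without surrogate variables the split turned to 14 and 30, and the 7 constitutive beta subunits went from 5 higher and 2 lower to 0 higher and 7 lower, with a median of -0.10. The lowest p was that of Psmb7, with WT-HFD at 61.9 to 69.1 CPM and TG-HFD at 56.9 to 66.2 CPM, overlapping, and a fitted log2 change of -0.11 (SE 0.0539, adjusted p 0.884). The largest change was that of Psme2, a subunit of the interferon-induced activator, at 0.15 (SE 0.0894, adjusted p 0.949), with libraries at 17.3 to 23.8 CPM in WT-HFD and 19.4 to 22.7 CPM in TG-HFD. Psmb5, Psmb6 and Psmb10 were at 0.0411, 0.0707 and -0.0063, with adjusted p of 0.92 or higher.

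In hippocampus on SD, 0 of the 45 genes were called, against 0.098% of all genes, and 3 had an unadjusted p up to 0.05, against 9.08%. There were 22 higher and 23 lower, with a median of -0.0048 (-0.0006 over all genes). Psmd1, the scaffold of the cap that docks ubiquitin receptors, had the lowest p, with WT-SD libraries from 116 over a median of 119 to 126 CPM and TG-SD libraries from 103.9 over 113 to 119 CPM. Its groups overlapped slightly, and the log2 fold change was -0.0978 (SE 0.0342, adjusted p 0.312). The others, named after their values were seen, were the ATPase Psmc2 at -0.10 (adjusted p 0.413) and Psmd5, an assembly chaperone of the cap, at 0.10 (adjusted p 0.401). Psmg4 had the largest change, -0.17, with an interval from -0.44 to 0.11. Psmb5, Psmb6, Psmb7 and Psmb10 were at -0.016, 0.0418, -0.0663 and -0.0223, with adjusted p of 0.706 or higher.

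In hippocampus on HFD, where the largest number of genes was called over all genes (0.226%), 0 of the 45 were. At an unadjusted p up to 0.05 there was 1 (2.22%), against 11.3% of all genes. There were 18 higher and 27 lower, with a median of -0.0087 (-0.0054 over all genes), and 6 of the 7 constitutive beta subunits were lower with a median of -0.0169. Without surrogate variables the split turned to 29 higher and 16 lower, and that of the constitutive beta subunits to 4 higher and 3 lower. The 1 gene was Psme3ip1, which is no subunit, with 31.9 to 35.0 CPM in WT-HFD and 31.0 to 34.5 CPM in TG-HFD. Its groups overlapped almost fully, and the log2 fold change was -0.13 (SE 0.0622, adjusted p 0.406). Psmb5, Psmb6, Psmb7 and Psmb10 were at -0.0672, 0.0543, -0.0079 and -0.0746, with adjusted p of 0.715 or higher.

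This comparison depended most on the surrogate variables. Without them, still 0 of the 45 genes were called, against 3.88% of all genes. By adjusted p alone there were 2 (4.44%), against 7.29% of all genes, and by unadjusted p 6 (13.3%), against 21.9%. The 2 were Psmd3, a non-ATPase cap subunit, with a fitted log2 change of -0.19 (SE 0.0569, adjusted p 0.0364), and Psma2, an alpha subunit, with 0.17 (SE 0.0511, adjusted p 0.0441). Psmd3 ran from 83.2 to 105.3 CPM in WT-HFD and from 76.9 to 87.9 CPM in TG-HFD, and Psma2 from 70.4 to 85.2 and from 83.3 to 92.1 CPM, so both overlapped. With surrogate variables they were at 0.0313 and 0.0694. Psmb10 had the largest change without them, -0.24 with an unadjusted p up to 0.05, against -0.0746 with them. In brainstem without surrogate variables, 0 of the 44 were called (0.0375% of all genes) and 5 had an unadjusted p up to 0.05 (19.7% of all genes). Psmb10 had the largest change, -0.37 (SE 0.132, adjusted p 0.153), against -0.0063 with them. The GC slope of the libraries, given above, differed between the same groups in both regions, and its part in these values was not tested beyond the alternatives at the end.

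**Figure D3:**
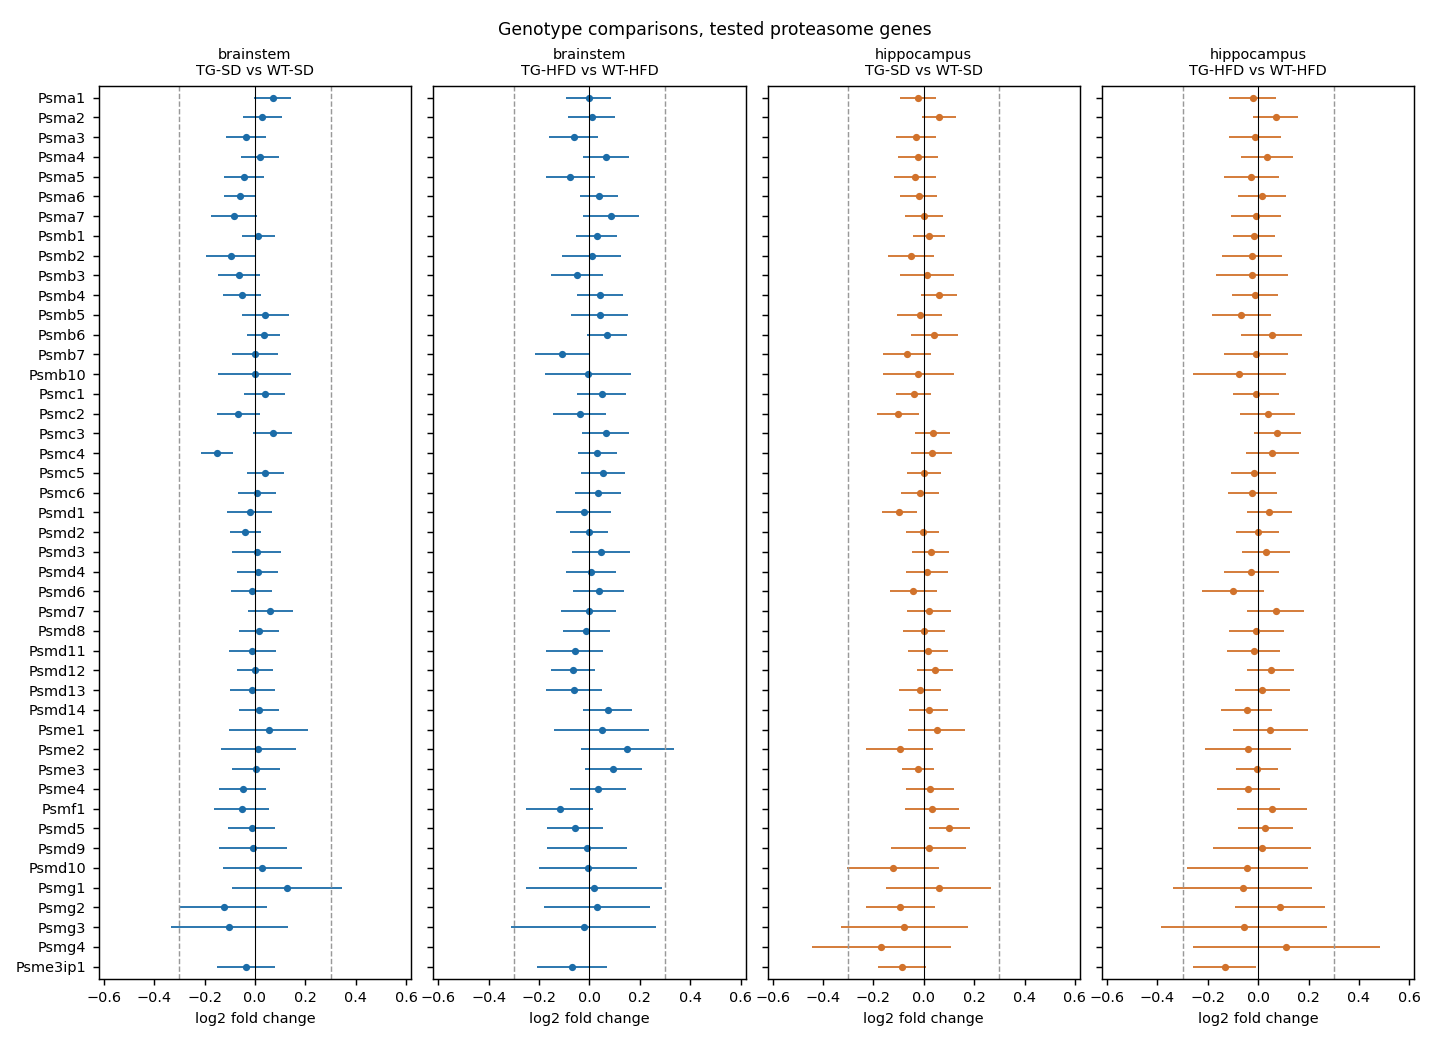
Fitted log2 fold changes of TG against WT on SD and on HFD in both regions, with 95% intervals, for each tested gene ordered by role, from the model with 4 surrogate variables. Dashed lines mark ±0.3. All points lie between -0.17 and 0.15, and 0 genes were called.

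The diet comparisons ask whether these genes respond to long feeding of fat. In WT brainstem 0 of the 44 genes were called, as were 0% of all genes, and 3 (6.82%) had an unadjusted p up to 0.05, against 5.43%. There were 16 higher and 28 lower on HFD, with a median of -0.0266, against -0.0068 over all genes, and all 6 ATPases were lower with a median of -0.0305. Without surrogate variables the split was 22 and 22, and the ATPases were 3 higher and 3 lower with a median of -0.0011. Psma7, an alpha subunit, had the lowest p, with WT-SD libraries at 71.8, 89.3, 104.4, 69.1 and 72.2 CPM and WT-HFD libraries from 66.4 over a median of 79.7 to 93.3 CPM. The groups overlapped widely, and the log2 fold change was -0.11 (SE 0.0477, adjusted p 0.896). Psmc4 was at -0.0736 (adjusted p 0.91) and Psma1 at 0.0803 (adjusted p 0.919), both named after their values were seen. The largest change was that of Psmg3, -0.13, with an interval from -0.38 to 0.12.

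In TG brainstem 0 of the 44 were called on HFD against SD, where 0.0075% of all genes were, and 3 (6.82%) were higher at an unadjusted p up to 0.05, against 6.91% of all genes in either direction. There were 18 higher and 26 lower, with a median of -0.0075 (-0.0011 over all genes). Without surrogate variables the split was 11 and 33, and the 7 alpha subunits went from 4 higher and 3 lower to 0 higher and 7 lower, with a median of -0.11. Psmc4 had the lowest p with a fitted log2 change of 0.11 (SE 0.0319, adjusted p 0.473), although the group means were 83.7 and 84.6 CPM and the change without surrogate variables was 0.0139. Psmb2, a beta subunit without a catalytic site, had the largest change, 0.12 (SE 0.0488, adjusted p 0.621), with 46.4 to 52.6 CPM in TG-SD and 45.8 to 54.7 CPM in TG-HFD. Next to these, named after the values were seen, was Psme4, an activator of the core, at 0.11 (adjusted p 0.621).

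In WT hippocampus 0 of the 45 genes were called, as were 0% of all genes, and 0 had an unadjusted p up to 0.05, against 6.41% of all genes. There were 26 higher and 19 lower on HFD, with a median of 0.0063 (0.0048 over all genes). Without surrogate variables the split turned to 16 and 29, with 1 alpha subunit higher and 6 lower. Psmd1 had the lowest p, at -0.065 (SE 0.0379, adjusted p 0.851), and Psmg4 the largest change, at -0.22 with an interval from -0.53 to 0.0905. Psma6 was the 1 of the 45 genes (2.22%) whose libraries did not overlap between these groups, which held for 0.467% of all genes, and it was named after its values were seen. Its WT-SD libraries ran from 72.0 over a median of 73.8 to 85.5 CPM and its WT-HFD libraries from 59.8 over 70.6 to 71.3 CPM. All 6 WT-HFD libraries were lower, the nearest pair being 71.3 and 72.0 CPM. The fitted change was -0.056 (SE 0.0401, adjusted p 0.885) with surrogate variables and -0.14 (SE 0.0587, adjusted p 0.414) without.

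In TG hippocampus 0 of the 45 were called, as were 0% of all genes, and 2 (4.44%) were higher at an unadjusted p up to 0.05, against 7.08%. There were 24 higher and 21 lower, with a median of 0.0085 (-0.0022 over all genes). The lowest p was again that of Psmd1, with TG-HFD libraries from 113 over a median of 119 to 125 CPM beside the TG-SD values above. The groups overlapped, and the log2 fold change was 0.0774 (SE 0.0322, adjusted p 0.589). Psmc2 was at 0.0929 (adjusted p 0.602). Psmg2, an assembly chaperone of the alpha ring, had the largest change, 0.10 (SE 0.0636, adjusted p 0.805).

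**Figure D4:**
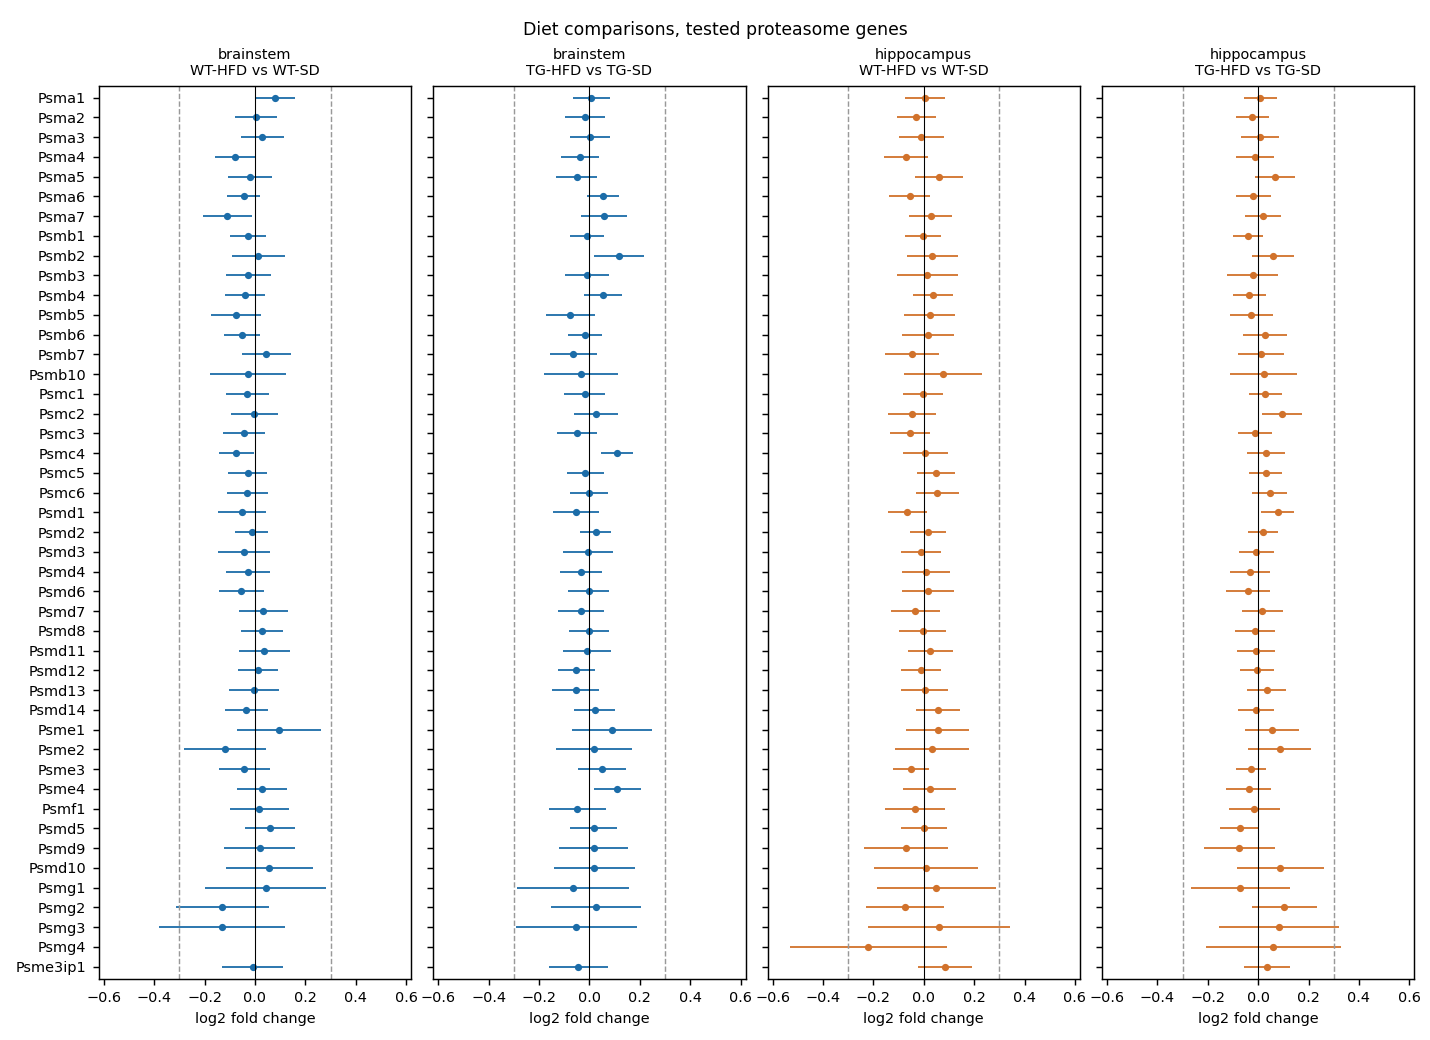
Fitted log2 fold changes of HFD against SD in WT and in TG mice in both regions, with 95% intervals, for each tested gene ordered by role, from the model with 4 surrogate variables. Dashed lines mark ±0.3. Points lie between -0.22 (Psmg4, hippocampus, WT) and 0.12 (Psmb2, brainstem, TG), and 0 genes were called.

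The interaction, the diet change in TG minus that in WT, tests whether genotypes responded differently to HFD. It called 0 of the 44 genes in brainstem, against 0.0075% of all genes, and 0 of the 45 in hippocampus, against 0%. At an unadjusted p up to 0.05 there were 3 in brainstem (6.82%, against 4.83% of all genes) and 2 in hippocampus (4.44%, against 5.98%). The lowest p in brainstem was that of Psmc4, with a difference of 0.18 (SE 0.0489, adjusted p 0.942). Without surrogate variables this difference was 0.0012. Psma7 and Psma6, named after their values were seen, were at 0.17 and 0.0991 (adjusted p 0.993 each). Without surrogate variables the differences of all 7 alpha subunits were negative, with Psma6 at -0.049. Those of the constitutive beta subunits went from 6 positive and 1 negative to 0 positive and 7 negative. In hippocampus Psmd1 was at 0.14 (SE 0.0508, adjusted p 0.684) and Psmc2 at 0.14 (SE 0.0619, adjusted p 0.774). Psmg4, the most variable gene there, had the largest difference, 0.28, with an unadjusted p above 0.05. For Psmd1 the median was 119 CPM in WT-SD, 116 in WT-HFD, 113 in TG-SD and 119 in TG-HFD, so its order turned between the diets. Medians over the genes were 0.0057 in brainstem and 0.0059 in hippocampus (0.0054 and -0.0076 over all genes). Without surrogate variables they were -0.0555 and 0.025.

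Over these 10 comparisons, the precision for the proteasome genes was higher than for the average gene. In brainstem the interval lay wholly within ±0.3 for 42, 42, 42 and 44 of the 44 genes in the 4 comparisons between groups and for 39 in the interaction. All genes had shares of 75.7, 66.3, 74.2, 76.2 and 50.1% there. In hippocampus the counts were 42, 42, 43, 43 and 40 of 45, against 80.4, 63.3, 75.8, 85.1 and 57.9% of all genes. True changes that are small beside these intervals could go undetected.

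Genes under the filter were followed by their counts. Psmb8 had 24 to 72 counts per library in brainstem and 17 to 43 in hippocampus, and Psmb9 14 to 37 and 10 to 25. Psme2b, a near copy of Psme2, had 31 to 68 and 26 to 56, and reads could be split between the copies. Psma8 had 2 to 17 and 1 to 10, Psmb11 0 to 2 and 0 to 5, and Psmc3ip 4 to 30 and 19 to 42. Psmg4 had 23 to 74 in brainstem and passed the filter in hippocampus with 41 to 85. With a total count of at least 50 as the filter, which left out Psmb11 in brainstem, 0 of these genes were called in the comparisons run. The lowest p was that of Psmb9 in brainstem, higher on HFD in WT by 0.45 on the log2 scale (95% interval 0.0476 to 0.84, adjusted p 0.661). Its WT-SD libraries were at 1.39, 2.07, 2.44, 1.24 and 1.83 CPM and its WT-HFD libraries at 1.78 to 2.93 CPM, which overlapped. The 95% intervals of Psmb8 over the 10 comparisons reached down to -0.94 and up to 0.74, with SEs from 0.193 to 0.302. Changes of this gene were thus measured with little precision at this depth.

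Other genes of the pathway were taken from lists. They were 10 tested genes for other proteasome parts such as Adrm1 and Pomp, 7 (6 in hippocampus) for control of proteasome genes such as Nfe2l1 and Ddi2, and 7 for ubiquitin and its activation. The other lists held 9 genes for shuttles and the unfoldase Vcp, and 11 (9 in hippocampus) for interferon response and antigen presentation. In each of the 10 comparisons 0 of these genes were called by edgeR's test, and 0 to 3 of a list had an unadjusted p up to 0.05. Over all genes, 0 to 0.226% were called and 4.83 to 11.3% had such an unadjusted p, depending on the comparison. In brainstem, the lowest p among other proteasome parts for TG-SD against WT-SD was that of Ube3c, a ligase on the proteasome, at -0.0892 (SE 0.0349, adjusted p 0.332), and Nfe2l1 was at -0.0685 (adjusted p 0.896) for HFD in WT. For TG-HFD against WT-HFD in hippocampus, Ddi2, the protease that activates the Nfe2l1 factor, was at -0.19 (SE 0.0583, adjusted p 0.154). In the same comparison Rps27a, a ubiquitin fusion gene, was at 0.12 (adjusted p 0.256), and Stub1, a chaperone-linked ligase, at 0.19 (adjusted p 0.344). Ifit3, an interferon-induced gene, was at -0.67 (SE 0.17, adjusted p 0.0731) there. These values are from the fit with surrogate variables, on which this comparison depended most. For Stub1 the paper describes the opposite direction, a lower expression in TG mice on HFD. The direction of Stub1 without surrogate variables is not given here, so its fitted change does not settle whether it was higher in TG-HFD. B2m, the light chain of MHC class I, was at -0.16 (SE 0.0417, adjusted p 0.151) for TG-SD against WT-SD in hippocampus.

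Over the marker lists of other cell types, 1 gene was called in these comparisons, the endothelial marker Cldn5. In brainstem it was higher in TG-SD than in WT-SD by 0.39 on the log2 scale (SE 0.0836, adjusted p 0.0284), where 0.142% of all genes were called. The summed level of the 5 endothelial markers was 278.6 to 324.2 CPM in WT-SD and 293.1 to 331.8 CPM in TG-SD, which overlapped. Other markers had only a low unadjusted p. In brainstem, 3 of 6 astrocyte markers were higher in TG-SD than in WT-SD at an unadjusted p up to 0.05 (10.5% of all genes in either direction), with a median of 0.15, and their summed level was 2946 to 3317 CPM in TG-SD and 2758 to 3302 CPM in WT-SD. In hippocampus, 4 of 6 astrocyte markers were lower in TG-HFD than in WT-HFD at an unadjusted p up to 0.05 (11.3% of all genes in either direction), with a median of -0.12. The same held for 3 of the 9 interferon and antigen presentation genes above, with a median of -0.18. The summed level of the astrocyte markers ran from 2042 to 2394 CPM in WT-HFD and from 1970 to 2489 CPM in TG-HFD, which overlapped. The sum of 5 choroid plexus markers ranged from 11.7 to 3014 CPM over brainstem libraries, and from 37.4 to 313.4 CPM in hippocampus. Their part in the proteasome values was not tested.

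The core level of each library was described by a mean, and single subunits did not all follow it. In brainstem TG-HFD replicate 3, Psmb5 was at its lowest, 42.4 CPM, but Psma2 at 132.7 CPM, above its mean of 126.5 CPM. The mean log2 CPM of the 14 tested alpha and constitutive beta subunits ran from 6.15 to 6.60 over the 23 brainstem libraries, a 1.36-fold range, and from 5.96 to 6.28 over the 24 of hippocampus, a 1.25-fold range. The 17 cap subunits moved less, over 0.196 and 0.135 on the log2 scale. Group means of the core level were 6.35 ± 0.16 (SD, n = 5) in WT-SD, 6.38 ± 0.123 in WT-HFD, 6.39 ± 0.0791 in TG-SD and 6.30 ± 0.108 in TG-HFD of brainstem (n = 6 each). In hippocampus they were 6.10 ± 0.0818, 6.06 ± 0.073, 6.10 ± 0.117 and 6.10 ± 0.0804 (n = 6 each). In both regions the group means differed by less than the range of the libraries within any group.

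The core level went with the length trend of the library, the slope of its log2 values over all tested genes per doubling of exon length. Libraries in which short genes read high had a high core level, with Pearson r = -0.897 and Spearman rho = -0.942 over the 23 brainstem libraries and -0.908 and -0.86 over the 24 of hippocampus. Without the 2 libraries farthest from the median slope, r was -0.915 and -0.866. After subtraction of the group means it was -0.899 and -0.923. For the cap r was -0.811 and -0.819, and with the GC slope the core gave -0.0954 and 0.0864. Both axes come from the same libraries and scaling, and the subunits are themselves among the genes behind the slope, so these values describe the libraries and carry no test.

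**Figure D5:**
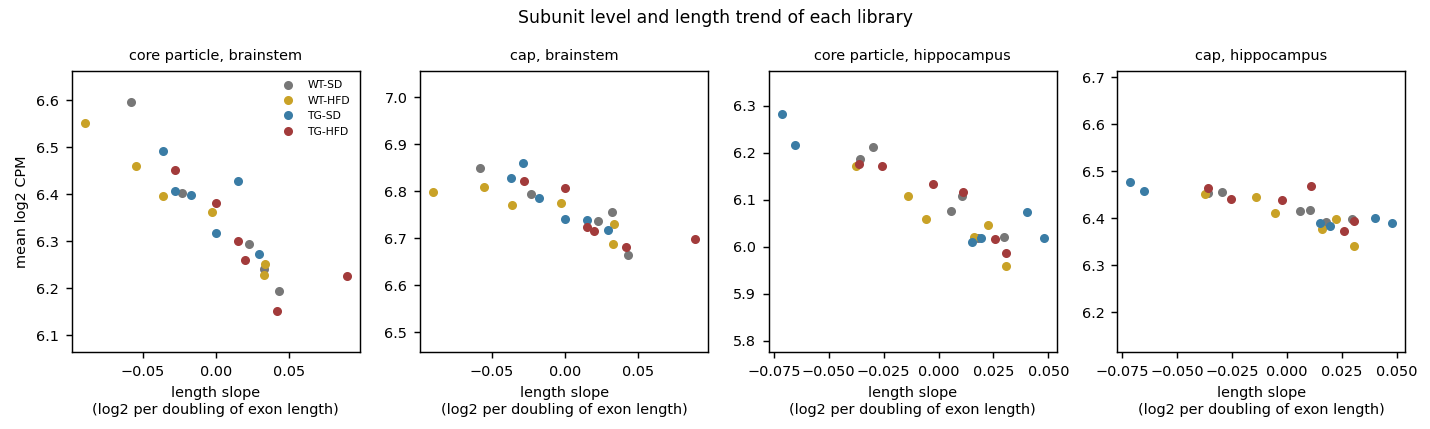
Mean log2 CPM of core subunits and of cap subunits against the length slope of each library (log2 per doubling of exon length), with 1 point per library coloured by group. Core levels fall along the slope in both regions (r = -0.897 and -0.908) with the 4 groups intermixed, and cap levels span a narrower range.

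Reads could not always be assigned to a single gene. In the annotation, 16 of the 51 genes share exon bases with another gene, 6 of them over at least 10% of their exon bases. These are Psmb5 with Mir686 (12.1%), Psmb7 with Nek6 (11.8%), Psmb8 with an antisense gene (14.7%), Psmc3ip with Mlx (21.2%), Psmd13 with Sirt3 (10.1%) and Psmd9 with a noncoding gene (25.5%). The strand setting of the counting is not given in the sources used here, so counts of these pairs cannot be told apart. Psmb5, Psmb6 and Psmb7 also have named pseudogenes, and their levels are uncertain to that extent.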

How the data were processed

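Poly(A) RNA of brainstem and hippocampus was sequenced in 47 libraries of single-end reads. The authors aligned reads with STAR 2.7.9a to the Ensembl mouse genome with the transgene's sequence added, and deposited raw counts per gene for each library. The counting tool and its strand setting are not given in the sources used here. The submitters' processing notes also name FastQC 0.11.9 and DESeq2 1.32.0. Total counts per library were between 10020784 and 17328447. The identity and counts of the transgene and 1 marker gene are not reported here. Samples were grouped by the genotype, diet and region of their labels.

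Each region was fitted separately with edgeR 4.0.16 (R 4.3.3) on genes whose counts averaged 50 or more, with TMM scaling, 4 group means and 4 surrogate variables (sva 3.50.0), and quasi-likelihood tests of 4 comparisons and their interaction. All p-values were adjusted by Benjamini-Hochberg over all tested genes. CPM are scaled by TMM, with no pseudocount. Regions were compared on log2(CPM + 0.5), without a test. Values per kilobase use the union of exons. The procedure was tested on simulated data. Alternatives changed the scaling, filter, number of surrogate variables, tool (DESeq2 1.42.0), samples, and corrections for GC content and length.

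Genes named were the catalytic subunits, the member with the lowest p and that with the largest change in each comparison, members called or under the filter, the 2 genes named alike, and the gene of lowest p in pathway lists. Members and lists were chosen with earlier results of these data known. Nothing in the labels says whether libraries of a group differ in more than the mouse, so p-values measure the spread between these samples.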

Additional observations from a re-analysis of the deposited data

Results flagged for a closer look

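Among 152 groups and measures (16 genes and 3 library summaries), 10 had a library apart from the others of its group, as judged by its gap to the nearest library over the range of the group. Chance gives about 1 in 20. In brainstem TG-SD, replicate 1 had the lowest Psmb10 (12.9 CPM, the others 19.5 to 23.4; ratio 0.691) and the lowest inducible share (7.05%, the others 9.30 to 10.4%; ratio 0.679), and replicate 8 the lowest Psmc3ip (0.357 CPM, the others 1.05 to 1.62; ratio 0.658). In brainstem TG-HFD, replicate 3 had the lowest Psmb9 (1.25 CPM, the others 2.04 to 2.57; ratio 0.661), replicate 1 the lowest Psmd1 (116 CPM, the others 139.96 to 153.3; ratio 0.673), and replicate 4 the lowest Psmg4 (2.33 CPM, the others 3.20 to 3.67; ratio 0.689). WT-SD replicate 6 of brainstem had the highest Psmc4, at 99.1 CPM with the others at 87.1 to 89.6 (ratio 0.785), and without this library the adjusted p of Psmc4 was 0.128.

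In hippocampus, WT-HFD replicate 7 had the lowest Psmb7 (37.7 CPM, the others 45.9 to 50.7; ratio 0.67), TG-SD replicate 5 the highest Psmb2 (52.5 CPM, the others 48.0 to 49.3; ratio 0.693), and WT-SD replicate 3 the lowest Psme3ip1 (28.5 CPM, the others 32.7 to 35.0; ratio 0.668). TG-SD replicate 1 and TG-HFD replicate 3 of brainstem also had the lowest GC slopes, and the part of that slope in these values was not tested.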

How the results depend on the processing

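Under each alternative run, DESeq2 included, 0 proteasome genes were called in the 10 comparisons, except that without the fold threshold 1 was called for TG-SD against WT-SD in brainstem, Psmc4 (-0.15). Leaving out any library kept the count at 0 (lowest 0, highest 0). Psmc4 then ran from -0.17 to -0.14 with adjusted p from 0.0139 to 0.128, and 18 of the 23 fits stayed at or under 0.05. Of the 15 other alternatives only 4 did: no fold threshold, RLE scaling, 3 surrogate variables and DESeq2 on the same surrogate variables (0.0304). Its adjusted p was 0.0525 with filterByExpr, 0.0847 with only the 2 groups compared and 0.229 with the total-count filter. With 0 surrogate variables it was 0.788, and 0.855 or 0.589 with GC or length correction added. Without surrogate variables up to 23 of 45 genes changed sign. Among the genes of lowest p in each comparison, signs turned for Psmc4 in the brainstem interaction with DESeq2 and 0 surrogate variables (-0.0022), for Psma7 in brainstem WT-HFD against WT-SD with 1 surrogate variable (0.0334), and for Psme3ip1 in hippocampus TG-HFD against WT-HFD with 0 surrogate variables after GC correction (0.0042) or length correction (0.0011). The median over proteasome genes moved to 0.0631 in that hippocampus comparison with 0 surrogate variables and length correction. The cause was not tested. Over all genes, that comparison called 30 genes, against 515, 614 and 634 with 0, 1 and 2 surrogate variables, and 28 with 3. With 0 surrogate variables it called 96 after GC correction and 521 after length correction, against the 515 without, and 550 with DESeq2. With only the 2 groups compared it called 282. The brainstem one called 7, against 87 with DESeq2 and 0 surrogate variables.

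Replicate numbers were not used as pairs in the main fit, and the labels do not say what they stand for. After subtraction of group means, same-numbered samples correlated at -0.31 to 0.40 over 26 pairs in brainstem, 10 of them over 0.1. In hippocampus they correlated at -0.15 to 0.41 over 36 pairs, 15 of them over 0.1. Their medians were 0.0392 and 0.0651, against -0.026 and -0.0414 for pairs of other numbers. Whether same-numbered samples share a litter or batch was not tested. With the replicate block 0 proteasome genes were called, Psmc4 was at -0.15 (adjusted p 0.395), and with 0 surrogate variables the median in the brainstem interaction moved to -0.0702.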
